A study of Mus musculus with 6 samples.

Results

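The 6 genes described here encode C1q-like ligands, C1ql1, C1ql2 and C1ql3, and their receptors of the brain-specific angiogenesis inhibitor (BAI) family, Adgrb1, Adgrb2 and Adgrb3, which encode BAI1, BAI2 and BAI3. They were taken by name from the 55487 genes counted in each library, and all 6 passed the filter on low counts. C1q-like proteins are small secreted proteins with a collagen-like stalk and a globular C1q domain, and they assemble into oligomers in the synaptic cleft. BAI proteins are adhesion G-protein-coupled receptors with a long extracellular part that holds thrombospondin repeats. In the cerebellum, C1QL1 released by climbing fibres binds BAI3 on Purkinje cells, and both are needed for climbing fibres to form and keep their synapses on these cells.

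RNA was sequenced from the cerebella of male mice at postnatal day 14, with 3 animals homozygous for the knockout allele of Galnt17 (formerly Wbscr17) from the Knockout Mouse Project (KO) and 3 wild-type B6C3 animals (WT). Galnt17 encodes a member of the enzyme family that starts mucin-type O-glycosylation. B6C3 is the hybrid of C57BL/6J and C3H/He, and homozygotes survived birth only after the allele had been bred onto it. The share of either strain in a KO animal, and whether the WT animals were littermates, are not stated in the labels. The allele is carried in the germline and is not limited to a cell type, and each title names 1 animal. Values are given below in the order of replicates 1, 2 and 3 of a group. Gene counts totalled 17111611 to 29840046 per library. Galnt17 had 72, 80 and 63 counts in the KO animals against 1119, 729 and 963 in the WT animals (log2 fold change -3.94), so each library lay on the side its label gives. The genes lie on chromosome 11 at 102939264 to 102946688 (C1ql1, minus strand), chromosome 1 at 120340582 to 120343174 (C1ql2, plus), chromosome 2 at 13003457 to 13011806 (C1ql3, minus), chromosome 15 at 74516195 to 74589465 (Adgrb1, plus), chromosome 4 at 129984870 to 130022633 (Adgrb2, plus) and chromosome 1 at 25067476 to 25829707 (Adgrb3, minus) of GRCm38. A pair of libraries stood apart in ways that bear on the genes below. WT replicate 1 had relatively fewer counts in GC-rich genes (Spearman correlation across genes of GC content with the library's deviation -0.22, against -0.07 to 0.13 in the others). WT replicate 3 had 159 counts of the serotonin transporter gene Slc6a4, a marker of brainstem raphe neurons, against 0 to 3 in the other libraries.

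Reads of 1 family member could be told from those of another by sequence. The coding sequences of the ligands, 777 bases in C1ql1, 864 in C1ql2 and 768 in C1ql3, were 70.8% (C1ql1 and C1ql2), 73.5% (C1ql1 and C1ql3) and 73.9% (C1ql2 and C1ql3) identical where they aligned. The 120-base stretch in which the 3 ligands are most alike is shown because it is where their reads could most easily be confused. It lies in the second exon of each gene, near the 3′ end of the coding sequence, and is read in the direction of transcription from the GENCODE transcripts of GRCm38, at chr11:102939760-102939879 (minus strand) in C1ql1, chr1:120342428-120342547 (plus strand) in C1ql2 and chr2:13004292-13004411 (minus strand) in C1ql3. Capitals mark the 30 positions that are not the same in all 3 genes.
C1ql1: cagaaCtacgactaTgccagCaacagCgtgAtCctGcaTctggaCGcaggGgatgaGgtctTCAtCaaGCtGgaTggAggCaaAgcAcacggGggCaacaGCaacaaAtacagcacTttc
C1ql2: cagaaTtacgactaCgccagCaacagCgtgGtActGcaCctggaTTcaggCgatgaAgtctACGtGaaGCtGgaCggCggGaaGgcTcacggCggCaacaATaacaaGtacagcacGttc
C1ql3: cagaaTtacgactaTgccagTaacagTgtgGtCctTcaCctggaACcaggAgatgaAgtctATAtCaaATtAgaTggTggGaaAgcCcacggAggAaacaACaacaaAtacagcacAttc
The longest run of identical bases was 24 in C1ql1 and C1ql2, 26 in C1ql1 and C1ql3 and 38 in C1ql2 and C1ql3, well under the read length of 150 bases. No window of 50 bases of the C1ql1, C1ql2 or Adgrb2 transcripts occurred in a transcript of another gene, and 0.293% of the windows of Adgrb1 and 0.419% of those of Adgrb3 did. C1ql3 differed, since 61.7% of its windows also occur, as their reverse complement, in transcripts of Gm37811 or Gm37824.

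The receptor genes are more distant, with coding sequences of 4749 bases in Adgrb1, 4734 in Adgrb2 and 4569 in Adgrb3 that were 58.4% to 59.1% identical by pair. The end of the coding sequence is shown because it encodes the short tail by which BAI proteins bind the PDZ domains of scaffold proteins such as PSD-95, and because it shows how far the 3 receptors differ outside that tail. The stretches are at chr15:74588840-74588884 (plus strand) in Adgrb1, chr4:130022298-130022338 (plus strand) in Adgrb2 and chr1:25068168-25068209 (minus strand) in Adgrb3 of GRCm38, each ending with the stop codon, and capitals mark bases that differ or are missing in at least 1 of the 3.
Adgrb1: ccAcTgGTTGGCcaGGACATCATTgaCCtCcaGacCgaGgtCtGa
Adgrb2: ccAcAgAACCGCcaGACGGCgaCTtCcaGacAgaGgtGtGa
Adgrb3: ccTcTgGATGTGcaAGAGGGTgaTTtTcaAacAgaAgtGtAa

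C1ql1 had the highest level per length of the 3 ligands. Its level in CPM (counts per 1000000 counts, with the library size scaled by TMM factors) was 17.3, 17.1 and 13.2 in the KO animals against 21.1, 25.3 and 22.8 in the WT animals. The KO values all lay below the WT values, with KO replicate 3 the lowest and WT replicate 2 the highest. The means were 15.9 ± 2.35 in KO and 23.1 ± 2.10 CPM in WT (SD, n = 3 each), a log2 fold change of -0.53 (SE 0.12, 95% interval -0.79 to -0.27), or 1.45-fold lower in KO. This difference just missed the threshold of 0.05 in the quasi-likelihood test of edgeR, adjusted by Benjamini-Hochberg over all 18237 genes tested (adjusted p = 0.0540, unadjusted p = 0.000957), where it ranked 323rd by p.

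**Figure D1:**
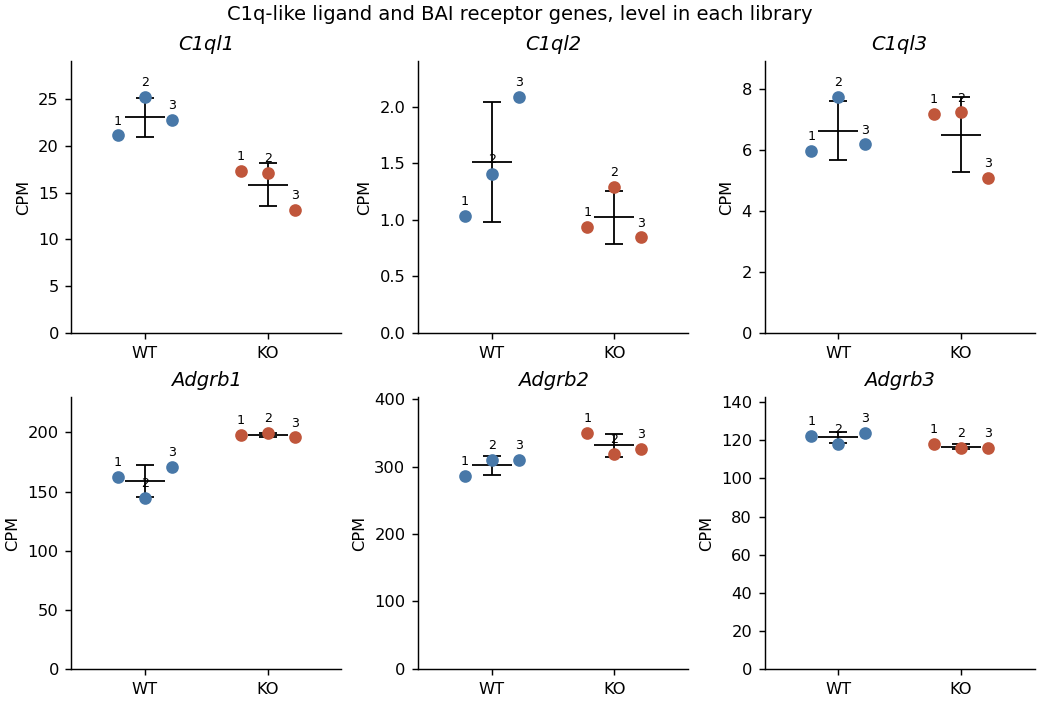
Level in CPM (vertical axes, each starting at 0) of the 3 ligand genes (top) and 3 receptor genes (bottom) in the WT (blue) and KO (red) libraries. Points are single animals with their replicate number, and bars are the mean and SD of 3. C1ql1 was at 13.2 to 17.3 CPM in KO and 21.1 to 25.3 CPM in WT, and Adgrb1 at 196 to 199.9 CPM in KO and 144 to 171 CPM in WT.

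The side of the threshold on which C1ql1 fell depended on the test and on single libraries, while its direction did not. It passed in DESeq2 (adjusted p = 0.00372), in edgeR's exact test (adjusted p = 0.00274), with no filter on low counts (adjusted p = 1.94e-05) and with a correction for GC content (adjusted p = 0.0309), but not in limma-voom (adjusted p = 0.0543). Leaving out WT replicate 1, the library with the shifted GC content, gave a log2 fold change of -0.59 that passed (adjusted p = 0.0152). Leaving out any other library gave log2 fold changes from -0.60 to -0.42 that did not pass in edgeR (adjusted p of 0.0712 to 0.181), the smallest of them without KO replicate 3. C1ql1 had a log2 fold change below 0 in all 17 alternatives, and 6 of them passed.

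The cell bodies of the climbing fibres lie in the inferior olive of the brainstem, so the C1ql1 RNA of olivary neurons is not part of a cleanly dissected cerebellum. Within the cerebellum, oligodendrocyte precursors are a known source of C1ql1 RNA. Of 12 markers of these precursors, such as Pdgfra and Gpr17, 0 passed in edgeR, DESeq2, limma-voom or the exact test. At an unadjusted p under 0.05, 4 of the 12 were lower, against 8.99% of all genes tested. A log2 fold change below 0 was seen in 11 of the 12, against 9392 of all 18237 genes. The median log2 fold change of the 12 was -0.14, and their summed level was 841 to 873 CPM in KO and 878 to 1043 CPM in WT. Per 100 CPM of that sum, C1ql1 stood at 1.98, 2.00 and 1.56 CPM in KO and 2.41, 2.82 and 2.19 CPM in WT. This ratio was 1.34-fold lower in KO and did not overlap between the groups (exact permutation test, two-sided, p = 0.1, the smallest p that 3 against 3 allows). The sum is weighted to the markers of highest level, so the ratio is not C1ql1 RNA per precursor. Ptprz1 gave a mean of 274 CPM of it in KO and 282 CPM in WT, and Pdgfra 36.4 and 44.5 CPM. Of 12 markers of brainstem and precerebellar neurons 4 had enough counts to be tested and 1 passed, Calca, which was lower in KO. The summed level of the 12 was 6.74 to 7.75 CPM in KO and 8.49, 8.51 and 26.2 CPM in WT. Th alone gave 3.75, 4.60 and 4.72 CPM of it in KO and 2.32, 3.05 and 4.76 CPM in WT. Of the 4 tested, Th had a log2 fold change above 0 and the other 3 below 0. The mean log2 CPM of these 4 was 0.35 to 0.49 in KO and 0.87, 0.54 and 2.01 in WT. Hoxb3 and Hoxd3, genes of the hindbrain that holds the olive, had no count in KO and at most 2 in a WT library. Without WT replicate 3 the log2 fold change of C1ql1 was -0.53, as with it. Summed markers of the choroid plexus (202 to 749 CPM in KO, 1579 to 2863 in WT, 7 of 8 lower) and of unipolar brush cells (672 to 722 CPM in KO, 739.8 to 842 in WT, 2 of 5 lower) were also lower in KO. Beside these calls and that of Calca, 0.872% of all genes tested were called lower. Of 7 granule cell precursor markers, 0 passed and 5 had a log2 fold change below 0, with changes from -0.94 to 0.31. At an unadjusted p under 0.05, 1 of these 7 was higher and 2 lower, against 8.57% and 8.99% of all genes. The sum of the 7 overlapped between the groups, at 384 to 402 CPM in KO and 371 to 415 CPM in WT. The part of these cell types in the C1ql1 values was not tested. In bulk tissue, fewer cells of a type and less RNA per cell cannot be told apart.

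C1ql2, whose protein is known from the mossy fibre synapses of the hippocampus, was barely detected. The KO animals had 28, 30 and 17 counts of it and the WT animals 25, 24 and 43. The groups overlapped, and WT replicate 3 was the highest. Its log2 fold change was -0.55 with an SE of 0.32 (adjusted p = 0.392), and -0.23 without WT replicate 3. The interval, from 2.38-fold lower to 1.11-fold higher in KO, covers a change larger than that of C1ql1, so a difference in C1ql2 was not detectable at this depth.

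C1ql3, the ligand gene known from cortical and amygdala neurons, did not differ beyond its spread. The count made without regard to strand gave 214, 168 and 102 reads in the KO animals against 144, 132 and 127 in the WT animals, or 7.17, 7.22 and 5.06 CPM against 5.96, 7.74 and 6.17 CPM. These values left out most of its reads. The annotation places 2 genes of unclear coding status, Gm37811 and Gm37824, on the opposite strand over 1627 of the 2535 exon bases of C1ql3 (64.2%), and reads there are set aside as ambiguous when strand is ignored. Summing the strand columns, a step added after the data had been seen, gave 599, 434 and 328 reads in the KO animals against 433, 351 and 396 in the WT animals, so that the unstranded count held 34.9% of this total. In the summed columns C1ql3 had more reads than C1ql1 in each KO library (516, 399 and 265 of C1ql1) and fewer in each WT library (510, 431 and 469). The log2 fold change was -0.02 (SE 0.17, adjusted p = 0.966) in the first count and -0.06 (SE 0.10, adjusted p = 0.806) in the second. The other 5 genes had the same total in both counts, to within 1 read.

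Adgrb1 was the only one of the 6 genes to pass. BAI1, its product, recognises phosphatidylserine on dying cells through its thrombospondin repeats and signals to Rac1 through ELMO and Dock180, and it is also found at excitatory synapses. Its level was 198, 199.9 and 196 CPM in the KO animals against 163, 144 and 171 CPM in the WT animals. The KO values lay within a few CPM of each other and above every WT value, of which WT replicate 2 was the lowest. The means were 198 ± 2.06 against 159 ± 13.5 CPM, a log2 fold change of 0.31 (SE 0.06), or 1.24-fold higher in KO (adjusted p = 0.0436). For comparison, 1.66% of all genes tested passed, 0.784% higher and 0.872% lower in KO, against 1 of the 6 ligand and receptor genes. At an unadjusted p under 0.05, 2 of the 6 were higher (Adgrb1 and Adgrb2) and 1 lower (C1ql1), against 8.57% and 8.99% of all genes, or 17.6% in either direction. The groups did not overlap in 4 of the 6, with Adgrb1 and Adgrb2 higher and C1ql1 and Adgrb3 lower, against 11.5% and 12.2% of all genes, or 23.7% in either direction.

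Whether Adgrb1 was called depended on the libraries kept and on the GC correction, while its direction did not. Leaving out KO replicates 1, 2 and 3 in turn gave log2 fold changes of 0.31, 0.31 and 0.32, but none of these passed with 1 animal fewer (adjusted p = 0.178, 0.203 and 0.160). Without WT replicate 2 it was 0.25 (adjusted p = 0.103), and with the GC correction 0.29 (adjusted p = 0.0831). Adgrb1 passed in 12 of 17 alternatives, among them DESeq2, limma-voom, the exact test and both strand columns. Its log2 fold change was above 0 in all 17. The summed markers of 4 cell types were higher in every KO library than in any WT library. Of 9 Purkinje cell markers 3 rose (Gng13, Pcp2 and Car8) and 0 fell, with a summed level of 4780 to 4999 CPM in KO and 3892 to 4245 CPM in WT. Of 10 oligodendrocyte markers 2 rose (Ermn and Cldn11) and 0 fell, with a summed level of 14371 to 15035 CPM in KO and 13058 to 13157 CPM in WT. The other 2 were meningeal fibroblasts (6 markers, 0 called, 201 to 228 CPM in KO and 182 to 197 CPM in WT) and interneurons of the molecular layer with Golgi cells (7 markers, 0 higher and 1 lower, Slc6a5, with 1049.6 to 1099.9 CPM in KO and 969 to 1011 CPM in WT). Beside these calls, 0.784% of all genes tested were called higher and 0.872% lower. Most of the interneuron sum was Pvalb, at 702 to 737 CPM in KO and 588 to 663 CPM in WT. The mean log2 CPM of those 7 markers overlapped between the groups (5.91 to 5.98 in KO, 5.89 to 6.13 in WT). Their median log2 fold change was 0.01. Sums of other lists overlapped between the groups or, as given above, were lower in KO. Astrocyte and Bergmann glia markers summed to 2475 to 2638 CPM in KO and 2605 to 2691 CPM in WT. The sums were 3642.5 to 3868 and 3753 to 3942 CPM for mature granule cells, and 120 to 128 and 115 to 131 CPM for microglia. The part of any of these cell types in the result for Adgrb1 was not tested.

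**Figure D2:**
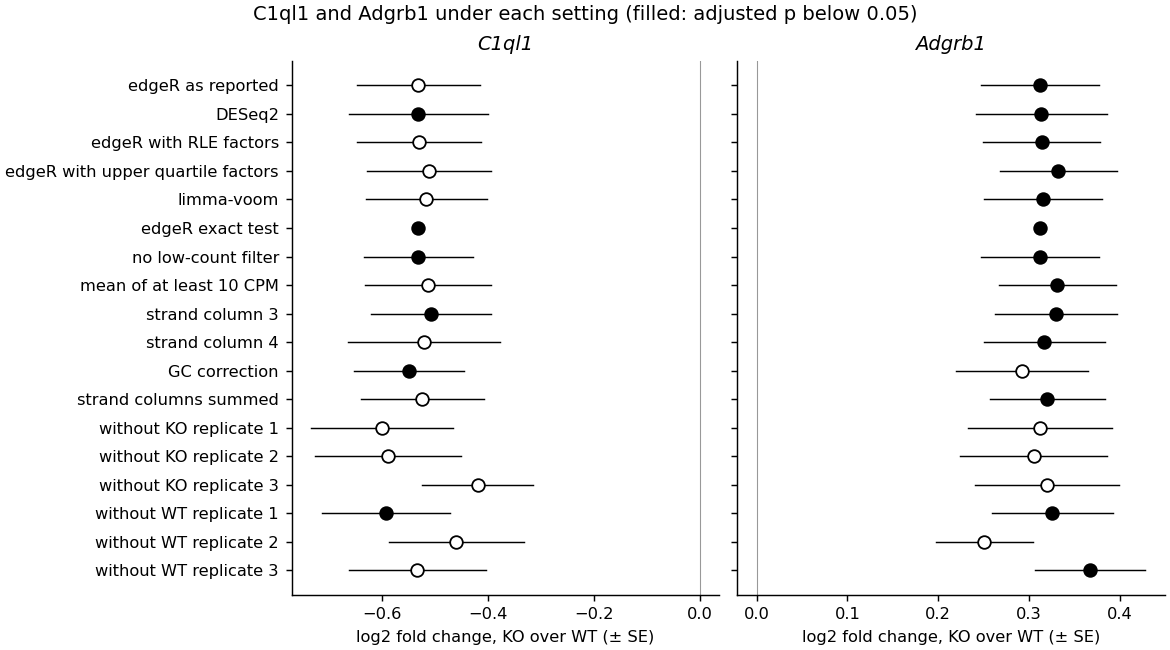
Log2 fold change of KO over WT (horizontal axes) for C1ql1 (left) and Adgrb1 (right) under the reported test and each of 17 alternatives (vertical axis). Lines are 1 SE, which the exact test does not give, and filled points have an adjusted p below 0.05. All points of C1ql1 lie between -0.60 and -0.42 with 6 alternatives filled, and all points of Adgrb1 between 0.25 and 0.37 with 12 filled.

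Adgrb2, which encodes BAI2, had the highest level of the 3 receptor genes. It was at 350.3, 318 and 326 CPM in KO and 286, 309.6 and 309.96 CPM in WT, so that the lowest KO value lay just above the highest WT value. Its log2 fold change was 0.14 (SE 0.06) and did not pass (adjusted p = 0.281, unadjusted p = 0.0483). The interval of the fold ran from 1.001 to 1.206.

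Adgrb3, which encodes the Purkinje cell receptor for C1QL1, had the smallest SE of the 6 genes. It was at 118, 116 and 116 CPM in KO and 122, 118 and 124 CPM in WT. The groups touched without overlapping, with KO replicate 1 just below WT replicate 2. The log2 fold change was -0.06 (SE 0.05, adjusted p = 0.559), and the interval of the fold, 0.890 to 1.03, leaves out changes as large as that of Adgrb1. Within its long introns lie 21 annotated genes of the same strand, none of which shared an exon base with it.

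Levels were compared between genes per kilobase of exon (RPKM, the CPM divided by the exon length in kilobases). Counted without strand, the order was Adgrb2 at 44.1 to 54.0, Adgrb1 at 20.0 to 27.7, C1ql1 at 8.93 to 17.2, Adgrb3 at 6.25 to 6.68, C1ql3 at 2.00 to 3.05 and C1ql2 at 0.422 to 1.05 RPKM, and no neighbours in it overlapped. With the strand columns summed, C1ql3 moved up to 5.98 to 7.55 RPKM and overlapped Adgrb3 at 5.82 to 6.22 RPKM, so those 2 genes could not be ordered. The part of Adgrb3 that other genes do not overlap is its whole exon length, and that of C1ql3 is 908 bases. Over this length, an alternative also added after the data had been seen, its level was 5.58 to 8.53 RPKM.

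**Figure D3:**
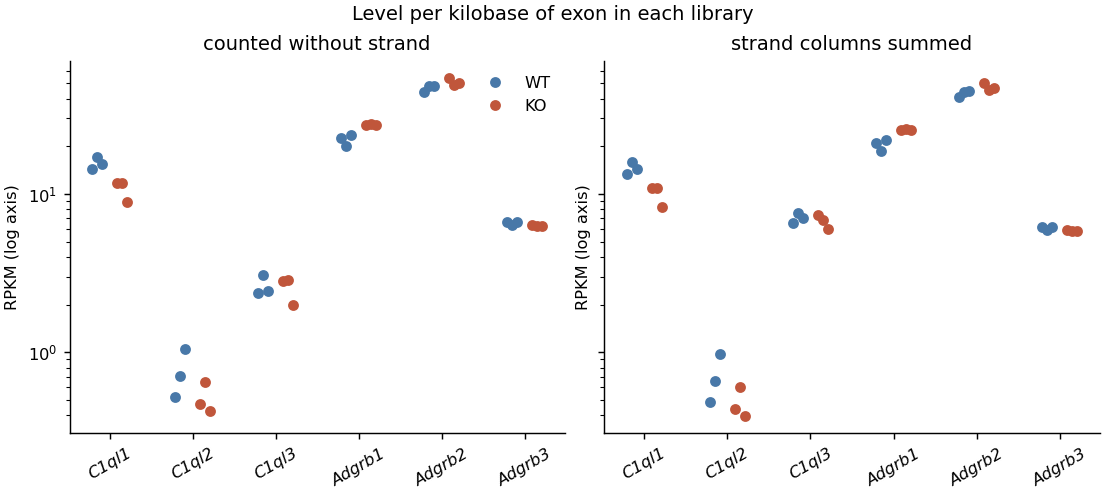
Level in RPKM (vertical log axis) of the 6 genes in each WT (blue) and KO (red) library, counted without strand (left) and with the strand columns summed (right). C1ql3 sits at 2.00 to 3.05 RPKM on the left and at 5.98 to 7.55 RPKM on the right, and the other genes keep their places.

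The make-up of each family was compared within libraries, which does not depend on how libraries are scaled. Shares of a family add up to the whole, so a rise of any share goes with a fall elsewhere. They are therefore not separate results. C1ql1 gave 78.1%, 76.9% and 78.7% of the summed ligand RPKM in KO and 83.3%, 82.0% and 81.6% in WT. The difference was -4.44 percentage points, and -7.13 with the strand columns summed, where C1ql3 counts for more. Adgrb1 gave 31.2%, 33.3% and 32.4% of the summed receptor RPKM in KO and 30.8%, 27.0% and 30.3% in WT, a difference of 2.99 percentage points. Adgrb3 gave 7.24% to 7.55% in KO and 8.56% to 9.02% in WT. C1ql3 gave 18.4% ± 0.703 of the ligand RPKM in KO and 13.7% ± 0.877 in WT (SD, n = 3 each). Its own level had a log2 fold change of -0.02 in that count (edgeR's quasi-likelihood test, adjusted p = 0.966). With the strand columns summed, C1ql3 gave 39.2% ± 1.64 in KO and 31.7% ± 0.525 in WT, and C1ql1 58.1% ± 1.34 and 65.2% ± 0.944. Counted without strand, none of these 4 shares overlapped between the groups, and the exact permutation test (two-sided) gave p = 0.1 for each, the smallest it allows, or 0.15 adjusted over 6 shares. The share of Adgrb2 overlapped between the groups (60.2% ± 1.22 against 61.9% ± 2.19, n = 3 each, exact permutation p = 0.4).

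Among other partners of C1q-like proteins, 1 gene was lower. Nptxr encodes the neuronal pentraxin receptor, which joins with neuronal pentraxin 1 and with BAI3 in complexes bridged by C1QL3. It was at 281, 288 and 287 CPM in KO and 388, 446 and 475 CPM in WT. The KO values lay close together, and the lowest WT value, in replicate 1, was far above them. Nptxr fell 1.53-fold, with a log2 fold change of -0.61 (SE 0.07, adjusted p = 0.00248), and passed in all 17 alternatives, with log2 fold changes from -0.69 to -0.54. It overlaps Npcd, a gene on the same strand that shares 890 of its exon bases and had no count in any library, and reads that fall on exons of both genes are set aside by this kind of count. Of 6 partners tested, Nptxr fell and 5 did not pass, where 0.872% of all genes tested were called lower in KO. Nptx1, the pentraxin itself, was at 444 ± 18.5 against 446 ± 22.8 CPM (adjusted p = 0.967), and the kainate receptor subunit genes Grik2 and Grik4, whose products C1QL2 and C1QL3 recruit in the hippocampus, had adjusted p = 0.373 and 0.619.

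Of the nearest relatives of the ligands, the cerebellins and C1ql4, 0 of 4 tested passed in edgeR's quasi-likelihood test or limma-voom. Against 8.99% of all genes, 2 of the 4 were lower at an unadjusted p under 0.05. DESeq2 called 1 of these lower (Cbln4) and the exact test both. Cbln1, the cerebellin that granule cells secrete at their synapses with Purkinje cells, was at 886 ± 7.36 against 907 ± 76.9 CPM, and Cbln3, which assembles with it, at 925 ± 25.1 against 888 ± 25.3 CPM. Cbln2 was counted 49, 33 and 31 times in the KO animals against 44, 42 and 329 times in the WT animals, and Cbln4 26, 26 and 22 against 40, 47 and 164 times. Both were by far the highest in WT replicate 3, the library with the Slc6a4 counts. The log2 fold change of Cbln2 was -2.13 (adjusted p = 0.162) with it and -0.46 (adjusted p = 0.382) without it, and that of Cbln4 was -2.01 (adjusted p = 0.0870) and -1.08 (adjusted p = 0.104). Leaving out WT replicate 1 instead gave -2.61 (adjusted p = 0.0193) for Cbln2 and -2.42 (adjusted p = 0.00555) for Cbln4. The part of brainstem tissue in these values was not tested. C1ql4 did not pass the filter, at 2, 2 and 0 counts against 3, 1 and 18.

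**Figure D4:**
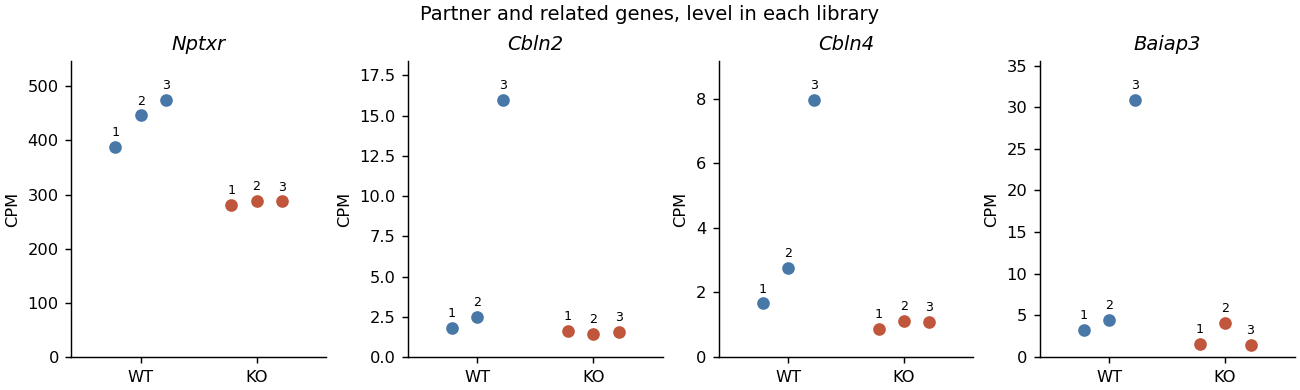
Level in CPM (vertical axes, each starting at 0) of Nptxr, Cbln2, Cbln4 and Baiap3 in the WT (blue) and KO (red) libraries, 1 point per animal with its replicate number. Nptxr was at 281 to 288 CPM in KO and 388 to 475 CPM in WT, while the other 3 genes are highest in WT replicate 3.

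Partners of the BAI receptors held no call. Of 15 measured, 0 passed in edgeR's quasi-likelihood test, DESeq2 or limma-voom and 1 was lower in the exact test. An unadjusted p under 0.05 was seen in 5 (1 higher, 4 lower), against 17.6% of all genes (8.57% higher, 8.99% lower). The median log2 fold change was -0.08, against -0.01 for all genes tested. Rac1, the small GTPase at the end of the engulfment pathway, was at 242 ± 3.26 against 266 ± 9.41 CPM (adjusted p = 0.213), and Rtn4r, the Nogo receptor gene whose product binds BAI proteins, at 26.3 ± 1.28 against 30.6 ± 2.71 CPM (adjusted p = 0.204). Baiap2, the gene of a BAI-binding adaptor that shapes the actin of spines, was at 168 ± 1.97 against 155 ± 3.98 CPM (adjusted p = 0.259). Baiap3, a gene of vesicle release in neuroendocrine cells and neurons, was counted 47, 95 and 30 times in the KO animals against 78, 75 and 636 times in the WT animals, again with WT replicate 3 standing alone. Its log2 fold change was -2.44 (adjusted p = 0.151), and -0.67 (adjusted p = 0.416) without that library. It was -2.92 (adjusted p = 0.0207) without WT replicate 1 and -1.35 (adjusted p = 0.182) with the strand columns summed.

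Genes of the climbing fibre synapse and its refinement gave no call either. Of 22 measured, 0 passed in edgeR's quasi-likelihood test or limma-voom, and 1 was higher in DESeq2 and 2 in the exact test. An unadjusted p under 0.05 was seen in 6 (5 higher, 1 lower), against 17.6% of all genes (8.57% higher, 8.99% lower). The median log2 fold change of the 22 was 0.03. Rora, a transcription factor gene that Purkinje cells need to mature, was at 403 ± 25.1 against 329 ± 21.8 CPM (log2 fold change 0.29, adjusted p = 0.0681), and Igf1, a growth factor gene that takes part in climbing fibre competition, at 16.5 ± 0.721 against 12.5 ± 1.04 CPM (log2 fold change 0.39, adjusted p = 0.0768). Cacna1a, the gene of the P/Q-type calcium channel, was at 524 ± 18.5 against 467 ± 16.97 CPM (adjusted p = 0.176) and the progranulin gene Grn at 56.9 ± 1.04 against 64.0 ± 4.62 CPM (adjusted p = 0.204).

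**Figure D5:**
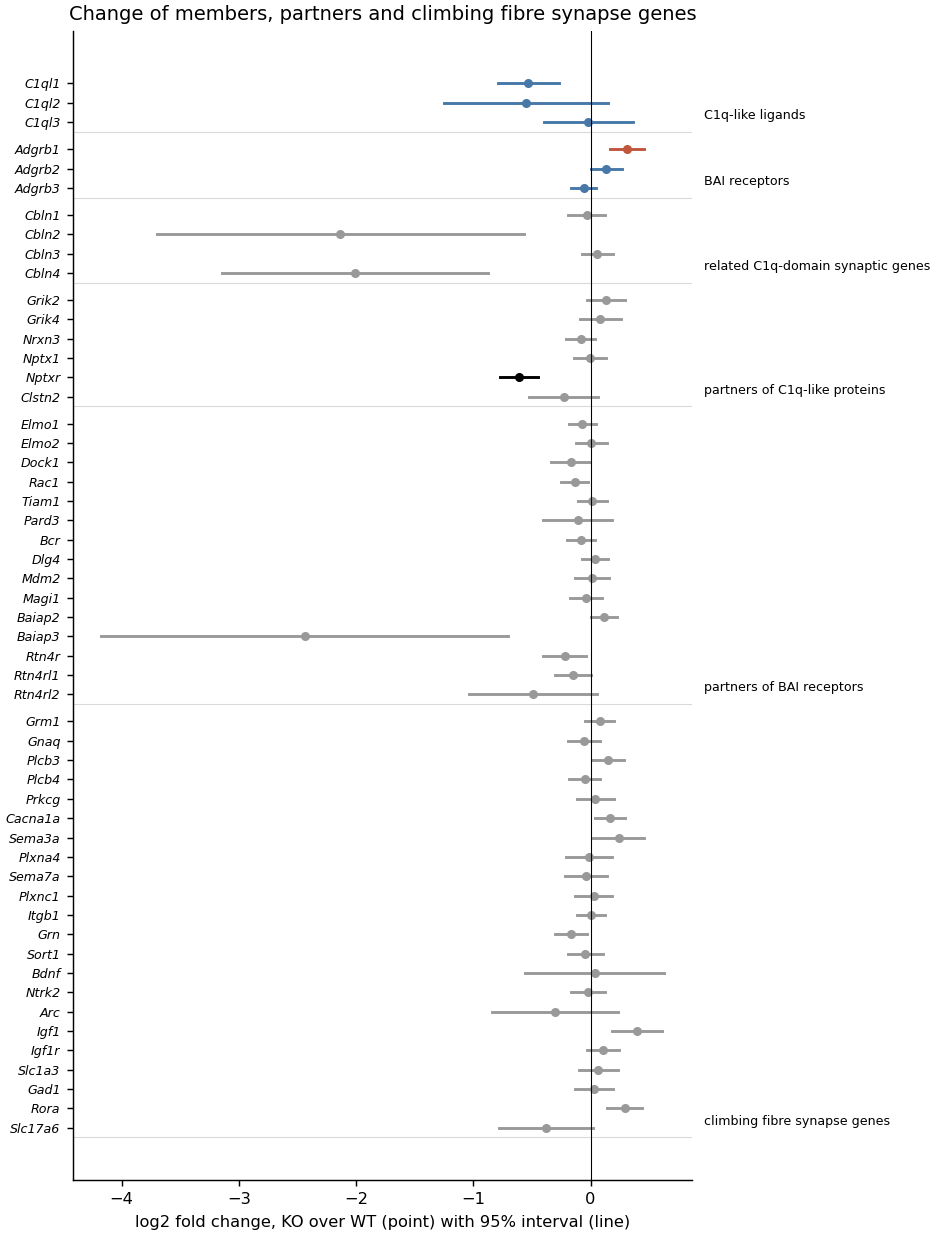
Log2 fold change of KO over WT (horizontal axis, points) with 95% intervals (lines) for the 6 ligand and receptor genes (red where the adjusted p was below 0.05, otherwise blue) and the genes of 4 related lists (black where it was below 0.05, otherwise grey), with the lists named at the right. Adgrb1 and Nptxr passed, and the widest intervals belong to Cbln2, Cbln4 and Baiap3.

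The genes whose levels followed each of the 6 most closely over the 6 libraries were listed as a description, by Pearson correlation of log2 CPM among protein-coding genes of at least 10 CPM. For C1ql1 these were Lhfpl2, Anp32b and Vapa (r of 0.997, 0.993 and 0.993), and for Adgrb1 Shisa6, Gpr37l1 and Plxnb3 (r of 0.999, 0.994 and 0.990). None of these passed (adjusted p of 0.0828 to 0.259). The closest to Adgrb3 were Add2, Dock1 and Pde4d (r of 0.991, 0.990 and 0.990), to Adgrb2 Card19, Ncoa2 and Ptdss2 (0.980, 0.977 and 0.976), to C1ql2 Vrk1, Peg10 and Psme1 (0.993, 0.988 and 0.983) and to C1ql3 Iffo2, Edem1 and Rrm2 (0.977, 0.9755 and 0.961). With only 6 libraries, high values were not confined to the genes listed. Of 10282 genes, 58 exceeded 0.95 with C1ql1, 58 with Adgrb1, 56 with Adgrb3 and 9 with Adgrb2. Of 10283 genes, 50 did so with C1ql2 and 8 with C1ql3. All values share the same libraries and depth.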

How the data were processed

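Paired reads of 150 bases came from TruSeq libraries of Trizol-purified, DNase-treated RNA, according to the extraction protocol in the labels. The authors deposited read counts per gene. The submitters' processing notes name STAR 2.7.5a, the build mm10/GRCm38 and edgeR 3.12, and the counting options are not stated there. The unstranded count column was used, since the strand columns held equal shares (49.9% to 50.0% in the first). Unmapped (6.52% to 17.2% of reads), multimapping (3.72% to 4.29%), unassigned (6.94% to 9.30%) and ambiguous reads (3.95% to 4.44%) stayed out of library sizes. GENCODE release 21 of GRCm38 named 55227 of 55487 genes and gave positions, lengths and sequences.

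Groups came from the strain label. Genes were tested with edgeR 4.0.16 in R 4.3.3 (TMM, default filter with minimum count 10 and minimum total 15, two-sided quasi-likelihood F test, called at a Benjamini-Hochberg adjusted p below 0.05). SEs and 95% intervals came from the log2 fold change and F statistic (6.36 prior degrees of freedom). Alternatives were DESeq2 1.42.0, limma-voom (limma 3.58.1), edgeR's exact test, other scaling factors, filters and count columns, a loess correction for GC content, and leaving out each library. In data simulated on the 18237 genes of this comparison, 70% of genes changed 1.5-fold and 84% of those changed 2-fold were recovered by edgeR.

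The 6 genes and the lists were chosen with earlier results of these data known. 1 gene of the climbing fibre list is not reported here. Named genes were the 6, Galnt17, the genes of each related list that passed or otherwise the 4 with the smallest p, passing markers, and the 3 genes most alike each of the 6. Further genes named (Nptx1, Grik2, Grik4, C1ql4, Slc6a4, Hoxb3, Hoxd3, Pdgfra, Gpr17, Th, Pvalb, Ptprz1) were chosen after their values had been seen. Reads carry no molecular identifiers, so precision from counts covers counting error only, and p-values measure the spread among 3 animals a group.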

Additional observations from a re-analysis of the deposited data

Results flagged for a closer look

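Unmapped reads, which no comparison above uses, made up 15.5%, 17.2% and 13.8% of all reads in the KO animals against 6.52%, 9.80% and 10.03% in the WT animals. The lowest KO library (13.8%) lay above the highest WT library, and the content of these reads was not analysed here.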

How the results depend on the processing

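Of the 6 genes, Adgrb1 and none lower were called in edgeR's quasi-likelihood test. With the GC correction 0 were higher and 1 lower, and 1 was lower in DESeq2, in the exact test, with no filter on low counts and in the first strand column. When libraries were left out in turn, 0 to 1 were higher and 0 to 1 lower. Over all genes 143 were higher and 159 lower, against 290 and 272 in DESeq2, 492 and 406 in the exact test, 803 and 820 with no filter and 85 and 58 with a filter at 10 CPM. Leaving out single libraries gave 28 to 959 higher and 53 to 962 lower genes, the highest numbers without WT replicate 1. The log2 fold change of C1ql3 was 0.0015 with upper quartile factors, 0.0037 in limma-voom and -0.10 to 0.12 when libraries were left out, and the log2 fold change of Cbln1 ranged from -0.074 to 0.042 when libraries were left out. The mean level of C1ql3 over 6 libraries was 2.59 RPKM, 7.22 per unambiguous exon length and 6.90 with the strand columns summed, where Adgrb2 was at 45.4 (from 48.8) and Adgrb3 at 5.97 (from 6.42) because the summed columns hold more reads in all. The difference in the share of C1ql1 was -7.53 percentage points per unambiguous exon length, -7.13 with the strand columns summed, -7.28 and -6.80 in single strand columns and -6.00 in counts. No paired analysis was possible because the labels give no replicate numbers, and those used here only name the animals in accession order.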

Other observations

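The BAI receptors belong to the wider family of adhesion G-protein-coupled receptors. Of 27 other members 20 had enough counts to be tested, and 0 passed in edgeR's quasi-likelihood test or limma-voom. An unadjusted p under 0.05 was seen in 5 of the 20 (2 higher, 3 lower), against 17.6% of all genes (8.57% higher, 8.99% lower). There was 1 higher in DESeq2, and 1 higher and 1 lower in the exact test. Celsr3, a planar polarity cadherin gene of neurons, was at 229.9 ± 10.2 against 186 ± 20.8 CPM (log2 fold change 0.31, adjusted p = 0.0868), close to the change of Adgrb1. Adgrg1, the gene of GPR56, which keeps oligodendrocyte precursors dividing, was at 77.1 ± 4.89 against 94.2 ± 11.5 CPM (log2 fold change -0.29, adjusted p = 0.131). Adgrg3 and Adgrv1, both at low levels, had log2 fold changes of 1.20 (adjusted p = 0.142) and -0.49 (adjusted p = 0.173).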
